A study of Mus musculus with 6 samples.

Results

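The genes described here, taken by name as zinc finger transcription factors, are the mouse protein-coding genes named Zfp, Zkscan or Zscan plus a number. The annotation used (GENCODE M21 basic, assembly GRCm38) holds 386 of them. Of these, 187 could be read in the deposited counts by genome position, and 159 had at least 10 counts in 3 or more of the 6 libraries and are the members. The other 28 readable genes fell below that count, and 199 genes were not read here. All 159 members were among the 5246 genes tested of 9520 genes read. The rule used no difference between groups, but the members were chosen with earlier results of these data known. In addition, 8 members reached the count in libraries labelled acute renal failure alone and none in libraries labelled healthy alone.

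The libraries are total RNA of C57BL/6 mouse kidney at postnatal day 21, sequenced as read pairs. C57BL/6 is a standard inbred laboratory strain. The labels name 3 libraries healthy (titles control) and 3 acute renal failure (titles treat), and no mutation or agent is named for either group. The cause of renal failure was not stated, nor whether each library is a separate animal. A p-value here therefore reflects library-to-library spread, which may be technical. Groups are written as healthy-labelled and ARF-labelled.

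Most of these genes encode proteins with an array of C2H2 zinc fingers, each finger contacting a few bases of DNA. Many carry a KRAB domain at the N-terminus, which recruits Trim28 (KAP1) and with it the histone methyltransferase Setdb1, HP1 proteins and DNA methylation, and is best known for silencing transposable elements and protecting imprints. Others carry a SCAN domain, through which such proteins pair. The genes expanded by tandem duplication, so many lie side by side in clusters of similar sequence.

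Total counts were 2873370 to 5710010 in the healthy-labelled libraries and 5455886 to 6191479 in the ARF-labelled ones, so the healthy-labelled libraries were on the whole shallower. Row names mostly belong to other positions than those counted, and 134 of 159 members had no row of their own symbol. Tubular injury markers were lower in the ARF-labelled group, and other marker lists moved in either direction. The labels themselves may be wrong, which was not tested and could not be settled here. If the groups were exchanged, every rise and fall given below would turn. All 5 readable tubular injury markers of 10 listed were lower in the ARF-labelled group, with a summed level of 10826 to 17601 CPM against 1890 to 2550. CPM here are counts scaled to the total of the library times its TMM factor (edgeR's correction for composition). All 5 readable immediate early genes of 10 were lower (2664 to 3412 against 324 to 645 CPM). The 3 readable collecting duct markers of 6 were higher (3447 to 4005 against 9201 to 11592 CPM), and 2 of 4 readable proximal tubule markers were lower (3726 to 6066 against 2229 to 3611 CPM). Both readable neutrophil markers, 3 of 4 readable macrophage markers and 3 of 4 readable endothelial markers were lower. Other lists were mixed: 1 higher and 1 lower of 2 distal tubule markers, and 1 and 1 of 5 fibroblast and matrix markers. Of 3 erythroid markers tested 1 was higher and 2 were lower, and Slc4a1 stands in both the erythroid and the collecting duct list. Kcnj1, the 1 readable marker of the loop of Henle, was higher (9.39 to 19.3 against 172 to 186 CPM), and Synpo, the 1 readable podocyte marker, was lower (17.3 to 22.5 against 3.26 to 4.36 CPM). Proximal tubule markers were present in every library, and no readable cell type marker except Hbb-bt was at 0 in all libraries. The part of these shifts in the results below was not tested. In whole kidney RNA, a change in the number of cells of a type and a change in RNA per cell cannot be told apart.

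The comparison asks how RNA of these genes differed between the 2 kinds of kidney. Of the 159 members, 88 rose and 13 fell in the ARF-labelled libraries, and 58 were not called (edgeR's quasi-likelihood test, Benjamini-Hochberg adjusted p under 0.05 over all genes tested). Among all 5246 genes tested, 25.1% were called higher and 24.9% lower. As the members were chosen with earlier results of these data known, this contrast is a description. The members' median log2 fold change (ARF-labelled minus healthy-labelled) was 0.63, with quartiles of 0.16 and 1.08, and 129 of 159 values were above 0. Over all genes tested the median was 0.01, with quartiles of -0.53 and 0.53. In 46 of the 159 members the called rise was at least 2-fold, and in 5 the called fall was at least 2-fold. Among all 5246 genes tested these shares were 11.4% and 13.5%. All 3 ARF-labelled values lay above all 3 healthy-labelled values in 102 of the 159 members and below them in 17. Among all genes tested the shares were 31.1% and 29.1%. Without ARF-labelled replicate 1 the number that fell was 8 in place of 13. Under scaling by total count, which moved the median of all genes to 0.19, 104 members were called higher and 7 lower, so 93.7% of the members' calls were rises in place of 87.1%. The same scaling moved the rises among all calls from 50.3% to 63.3%.

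**Figure D1:**
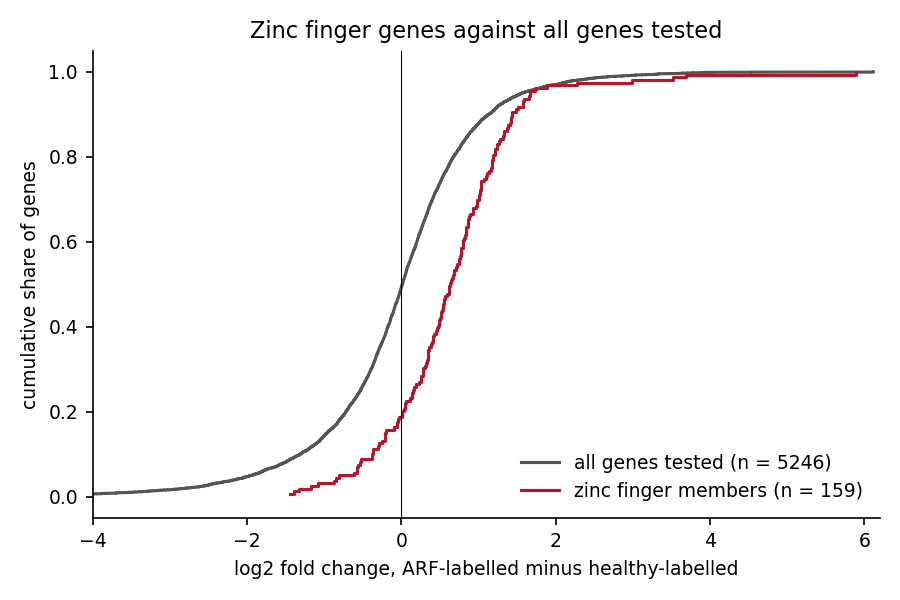
Cumulative share of genes (vertical axis) by log2 fold change, ARF-labelled minus healthy-labelled (horizontal axis, without the lowest values). The line of the 159 members lies to the right of that of the 5246 genes tested, with medians of 0.63 and 0.01.

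The summed level of the members was 6161, 6043 and 6309 CPM in the healthy-labelled libraries and 7609, 7867 and 7464 CPM in the ARF-labelled ones. As a share of the library total, the members held 0.572%, 0.578% and 0.592% against 0.814%, 0.820% and 0.802%. Every ARF-labelled library was above every healthy-labelled one on both scales. Of the 8 members that met the count in ARF-labelled libraries alone, 6 rose, and such members could only enter with more counts in that group. Zkscan16, Zfp773, Zfp30, Zfp667 and Zfp551, all described below, were among the 8, so the count rule favoured a rise in them. Among the 130 members with 10 counts in all libraries, 73 (56.2%) rose and 11 (8.46%) fell, with a median log2 fold change of 0.55. The shares of all genes tested were 25.1% and 24.9%.

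The median level of the members was 33.5 CPM per kilobase of exon counted (mean over the groups), with a range of 1.87 to 727. The rises were spread over the whole range. Among the 53 members with the lowest level per kilobase, 40 of 53 rose and 2 fell, with a median log2 fold change of 0.96. Among the 53 in the middle 21 rose and 6 fell (median 0.49), and among the 53 highest 27 rose and 5 fell (median 0.41). The counted exon bases ran from 41 to 10648 per member, with a median of 708, so a level rests on part of a gene.

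The largest rise was in Zkscan16 (chr4:58943628-58958355), a SCAN-type factor with 8 fingers. Its level was 0.377, 0.364 and 0 CPM in the healthy-labelled libraries and 12.7, 22.7 and 15.5 CPM in the ARF-labelled ones. The groups were far apart, with only 3 counts in all on the healthy-labelled side against 308, so Zkscan16 could become a member only through the ARF-labelled group. The ratio of the depth-scaled totals was 64.5, with a 95% interval of 21.9 to 314 that covers counting error only. The fitted log2 fold change was 5.89 ± 0.53 (SE, adjusted p = 6.24e-05, edgeR), and 6.48 without healthy-labelled replicate 1. Zkscan16 was 1 of 25 members with a row of their own symbol at their position, and 2184 of its 2794 counted bases were coding.

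A pair of neighbours on chromosome 11, Zfp454 and Zfp879, followed with Zfp773 on chromosome 7. Zfp773 (chr7:7127073-7136755) was at 1.13, 1.45 and 0.293 CPM in the healthy-labelled libraries and 8.57, 17.9 and 11.6 CPM in the ARF-labelled ones, with a log2 fold change of 3.69 ± 0.49 (SE, adjusted p = 0.000409, edgeR). Zfp454 (chr11:50872720-50887651), which has a KRAB match, was at 0.943, 3.64 and 1.17 CPM against 18.7, 21.2 and 20.1 CPM, a log2 fold change of 3.52 ± 0.39. Without healthy-labelled replicate 2, its highest healthy-labelled library, that value was 4.22. Zfp879 (chr11:50832031-50841552) was at 3.58, 2.91 and 1.17 CPM against 16.6, 25.5 and 21.2 CPM, a log2 fold change of 2.99 ± 0.35. In each of these genes the lowest ARF-labelled library lay several fold above the highest healthy-labelled one. The healthy-labelled totals were 11 counts for Zfp773, 19 for Zfp454 and 31 for Zfp879, against 230, 365 and 385. The ratio of the depth-scaled totals was 13.1 for Zfp773 (95% interval 7.20 to 26.7) and 12.1 for Zfp454 (7.62 to 20.3), for counting error only. Zfp2 (chr11:50898712-50916165), the next member along from Zfp454, was at 17.3, 16.0 and 17.6 CPM against 46.1, 56.6 and 49.9 CPM, a log2 fold change of 1.58 ± 0.14 (adjusted p = 5.30e-05, edgeR).

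The 300 bases around the start of these 4 genes, 250 before and 50 after it, are shown because they share a 13-letter word, the longest that the 4 have in common with at most 2 variable positions. The sequences are those of RefSeq on GRCm38.p6, read 5′ to 3′ along the gene, with the word in capitals (on either strand).
Zfp454 (chr11:50887461-50887760, minus strand): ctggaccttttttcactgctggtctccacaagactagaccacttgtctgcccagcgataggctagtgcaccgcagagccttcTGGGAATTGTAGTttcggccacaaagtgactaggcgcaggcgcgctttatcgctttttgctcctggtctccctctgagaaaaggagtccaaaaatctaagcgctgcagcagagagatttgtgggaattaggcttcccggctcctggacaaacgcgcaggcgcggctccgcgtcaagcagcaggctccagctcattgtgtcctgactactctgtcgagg
Zfp879 (chr11:50841503-50841802, minus strand): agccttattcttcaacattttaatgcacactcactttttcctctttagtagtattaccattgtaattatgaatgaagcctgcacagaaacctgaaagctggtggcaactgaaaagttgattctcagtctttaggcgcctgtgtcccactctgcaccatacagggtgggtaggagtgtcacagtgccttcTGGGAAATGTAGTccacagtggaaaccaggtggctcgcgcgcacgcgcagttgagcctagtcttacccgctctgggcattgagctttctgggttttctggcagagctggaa
Zfp2 (chr11:50916127-50916426, minus strand): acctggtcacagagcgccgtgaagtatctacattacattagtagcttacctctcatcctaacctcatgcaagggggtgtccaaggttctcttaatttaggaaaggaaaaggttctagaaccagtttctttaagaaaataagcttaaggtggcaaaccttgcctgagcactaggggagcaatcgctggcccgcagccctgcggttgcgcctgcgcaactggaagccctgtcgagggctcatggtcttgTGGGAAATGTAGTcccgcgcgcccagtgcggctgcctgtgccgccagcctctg
Zfp773 (chr7:7136706-7137005, minus strand): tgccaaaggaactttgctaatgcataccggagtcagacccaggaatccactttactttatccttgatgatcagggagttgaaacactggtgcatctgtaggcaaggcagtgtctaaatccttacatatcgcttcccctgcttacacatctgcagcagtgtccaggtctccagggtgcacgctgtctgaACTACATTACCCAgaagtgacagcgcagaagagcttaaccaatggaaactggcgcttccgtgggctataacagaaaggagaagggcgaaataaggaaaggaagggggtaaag
The word is ACTACANTNCCCA, or TGGGNANTGTAGT when read on the other strand, where N is any base. It resembles the sequence known to be bound by the zinc finger factor ZNF143 (mouse Zfp143, which could not be read here). It was chosen after these promoters and their genes' values were seen, so its counts are a description. A RefSeq promoter was found for 135 of the 159 members, and 22 of the 135 (16.3%) held the word, against 0.984% of all 27025 promoters of that length, 1 per gene. The 22 members were 18 that rose, none that fell and 4 that were not called, with a median log2 fold change of 1.03. Without the 4 genes printed above, 14 of 18 rose and the median was 0.99. Among the 113 members with a promoter that lacked the word, 61 rose and 9 fell, with a median of 0.55. Among other genes tested, 68 had the word, of which 25 rose and 6 fell (median 0.16), and 3854 lacked it, of which 947 rose and 964 fell (median 0.00). Of the 22 members with the word, 12 lay on chromosome 7, 5 on chromosome 13, 3 on chromosome 11 and 2 on chromosome 9, and several of them are neighbours. Zfp60 (chr7:27731389-27753702), with 19 fingers and a KRAB match, also had the word. It is named, with its value known, as the largest rise among the word members not printed above. It was at 19.8, 21.1 and 21.4 CPM against 55.4, 64.2 and 54.2 CPM, a log2 fold change of 1.48 ± 0.13. The smallest change among the 22 was in Zfp317, which was not called (log2 fold change 0.19 ± 0.11, adjusted p = 0.192, edgeR).

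The promoters of 2 of the largest falls are shown for comparison, with the GC box letters GGGCGG, or their reverse complement, in capitals. Zfp655 and Zfp382 lacked the word above, and the promoter of Zfp948 held neither. Most members' promoters (113 of 135) lacked the word, so its absence does not set these falls apart. It was also absent from the promoters of Zfp30, Zfp964, Zfp763, Zfp667, Zfp551 and Zfp984, which are among the 10 largest rises.
Zfp655 (chr5:145231492-145231791, plus strand): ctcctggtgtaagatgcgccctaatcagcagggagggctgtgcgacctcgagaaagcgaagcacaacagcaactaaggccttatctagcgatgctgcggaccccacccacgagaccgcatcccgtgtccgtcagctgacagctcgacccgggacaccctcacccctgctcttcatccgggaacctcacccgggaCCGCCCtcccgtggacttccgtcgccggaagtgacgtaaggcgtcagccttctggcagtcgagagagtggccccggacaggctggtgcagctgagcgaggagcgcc
Zfp382 (chr7:30121682-30121981, plus strand): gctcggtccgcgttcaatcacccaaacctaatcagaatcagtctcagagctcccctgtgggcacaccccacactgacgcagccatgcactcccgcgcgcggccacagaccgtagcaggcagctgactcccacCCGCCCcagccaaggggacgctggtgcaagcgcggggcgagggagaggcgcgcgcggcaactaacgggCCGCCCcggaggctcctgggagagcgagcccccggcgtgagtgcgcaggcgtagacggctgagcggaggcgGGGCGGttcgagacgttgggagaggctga
The GC box was in 7 of 9 promoters of members that fell, 28 of 79 of those that rose and 26 of 47 of those not called, against 35.9% of all promoters. At least 15 CpG were found in 7 of 9, 33 of 79 and 24 of 47, against 35.2% of all promoters. The members' promoters had a median of 14 CpG and all promoters a median of 7. TATAAA was in 6 of 135 members' promoters (4.44%) and in 14.2% of all. CCAAT was in 62 of 135 (45.9%) and in 37.9% of all. The AP-1 word TGANTCA was in 6 of 135 (4.44%) and in 7.93% of all, and the cAMP response element TGACGTCA was in 5 of 135 (3.70%) and in 1.88% of all. All words were sought on both strands, and a word in a window is not evidence of binding.

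Smaller rises, among members whose groups did not overlap, followed. Zfp30 (chr7:29783998-29794702), a KRAB-type factor, was at 1.13, 0.727 and 2.05 CPM against 8.40, 5.56 and 5.41 CPM. The ARF-labelled libraries were all above 5 CPM, and the log2 fold change was 2.27 ± 0.41 (adjusted p = 0.00219, edgeR). Zfp964 (chr8:69654479-69666982), with 9 fingers, was at 5.66, 6.18 and 4.69 CPM against 16.6, 21.7 and 16.8 CPM, a log2 fold change of 1.74 ± 0.22. Zfp763 (chr17:33016863-33033402) was at 13.4, 6.91 and 7.92 CPM against 27.9, 38.4 and 27.2 CPM, a log2 fold change of 1.67 ± 0.26. Zfp667 (chr7:6286579-6307883), known as Mipu1 and described in heart and brain ischaemia, was at 1.32, 0.727 and 0.880 CPM against 3.09, 3.30 and 3.46 CPM, a log2 fold change of 1.65 ± 0.38. Its healthy-labelled total was 12 counts.

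A pair of large rises carries a limit of its own. Zfp551 (chr7:12415153-12422751) rose by 1.89 ± 0.52 on the log2 scale, from 0.754, 0.364 and 0.293 CPM (6 counts in all) to 1.71, 2.43 and 1.80 CPM (36 counts). It is the member nearest to the count threshold. The change was 2.50 once healthy-labelled replicate 1 was left out, and the call was lost without healthy-labelled replicate 3 (adjusted p = 0.0620) or ARF-labelled replicate 2 (0.0549, both edgeR), and with DESeq2 (adjusted p = 0.0629). Just inside the threshold with it were Zfp446, Zfp442 and Zfp473, for which the count reached in 3 libraries was 13, 14 and 14. Just outside, and not tested, were Zfp658, Zfp719, Zfp575 and Zfp286, with 8, 8, 7 and 6. Zfp575 had 10, 8 and 7 raw counts in the healthy-labelled libraries against 1, 0 and 1. Zfp658 (8, 2 and 2 against 22, 6 and 19) and Zfp286 (1, 3 and 0 against 6, 12 and 7) leaned the other way. The threshold is on raw counts, and the healthy-labelled libraries were on the whole shallower. Zfp984 (chr4:147753974-147809788) was at 22.2, 8.0 and 15.3 CPM against 43.5, 58.5 and 48.7 CPM, a log2 fold change of 1.67 ± 0.29. All of its 621 counted bases had a copy of at least 95% identity in another gene, so its reads cannot be assigned to Zfp984 alone.

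**Figure D2:**
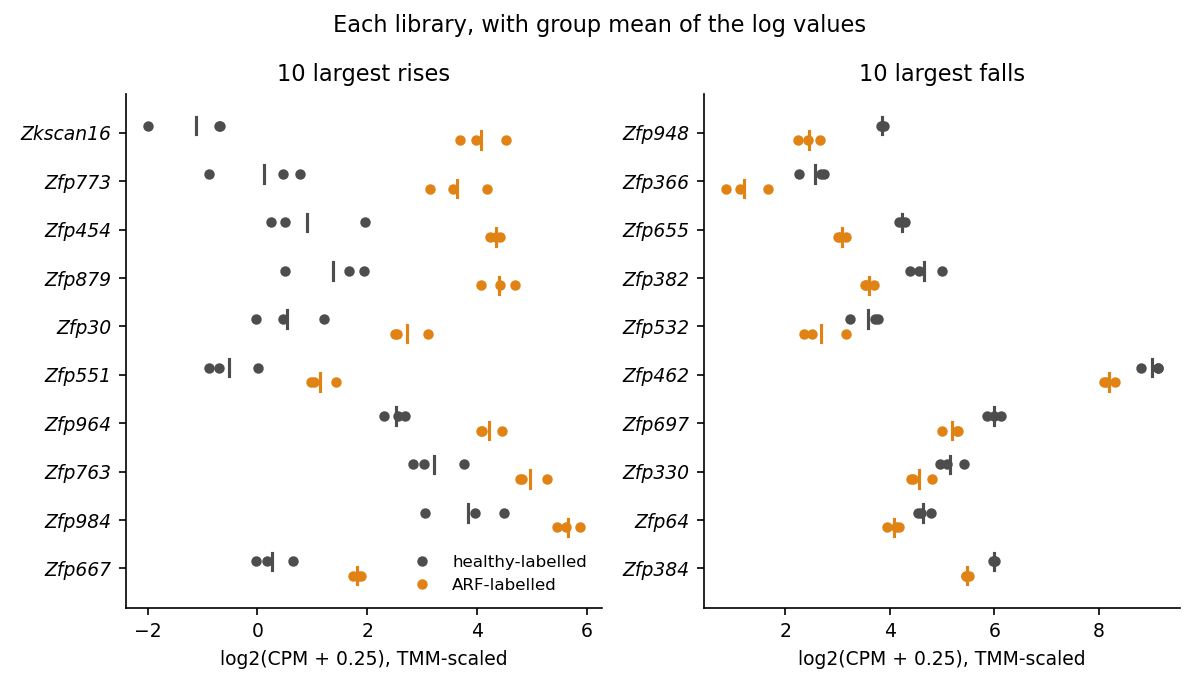
Level in each library, as log2(CPM + 0.25) with TMM scaling, of the 10 members with the largest rise and the 10 with the largest fall among called members whose groups did not overlap. Points are libraries (3 healthy-labelled, 3 ARF-labelled) and vertical ticks the mean of the log values. The groups are apart in all 20, and Zkscan16 is the most widely separated.

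The 13 members that fell were led by Zfp948 and Zfp366. Zfp948 (chr17:21567008-21588699), with a KRAB match and 15 fingers, was at 13.9, 14.2 and 14.7 CPM in the healthy-labelled libraries and 5.14, 6.08 and 4.51 CPM in the ARF-labelled ones. It fell by 1.44 ± 0.22 on the log2 scale (SE, adjusted p = 0.000817, edgeR), and replicates were close in both groups. Zfp366 (chr13:99184823-99250656), known as DC-SCRIPT and as a factor of dendritic cells, was at 4.52, 6.18 and 6.45 CPM against 2.91, 1.56 and 1.95 CPM and fell by 1.39 ± 0.35. Zfp655 (chr5:145231715-145247302) was at 19.2, 18.5 and 17.9 CPM against 8.06, 7.81 and 8.72 CPM and fell by 1.18 ± 0.18. It was counted over 104 bases of its 5′ UTR, so transcripts that start elsewhere are not seen. Zfp382 (chr7:30121942-30134950), a KRAB-type repressor, was at 20.7, 31.6 and 23.5 CPM against 11.5, 11.3 and 12.8 CPM and fell by 1.08 ± 0.20.

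The fall with the most counts behind it was in Zfp462 (chr4:54945048-55083563), a large factor with 33 finger matches that is known to act at heterochromatin. Its level was 446, 562 and 560 CPM against 317, 283 and 274 CPM, over 10648 counted bases. It fell by 0.84 ± 0.13 on the log2 scale (adjusted p = 0.00102, edgeR), from 522 ± 67 to 292 ± 22 CPM (SD, n = 3 each). Zfp697 (chr3:98382461-98753812) was at 57.9, 63.3 and 70.1 CPM against 39.1, 31.6 and 38.6 CPM and fell by 0.80 ± 0.14. Zfp384, which binds runs of T and is known from bone cells as Nmp4, was at 63.5, 64.4 and 62.5 CPM against 43.9, 43.7 and 45.4 CPM and fell by 0.52 ± 0.11. Of its counted bases 75.2% had a near-identical copy elsewhere.

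Some falls were less secure, and scaling by total count also ended the calls of Zfp64, Zfp330 and Zfp532 (adjusted p = 0.0507, 0.0651 and 0.0829, edgeR). Zfp64 was at 27.3, 24.0 and 22.9 CPM against 15.3, 17.2 and 17.7 CPM and fell by 0.57 ± 0.15, but the call was lost without ARF-labelled replicate 1 (adjusted p = 0.0541, edgeR). Zfp330, a nucleolar protein, was at 42.4, 33.8 and 30.8 CPM against 21.1, 21.5 and 27.7 CPM and fell by 0.61 ± 0.17. Its call was lost without healthy-labelled replicate 1, ARF-labelled replicate 1 or ARF-labelled replicate 2 (adjusted p of 0.0566 to 0.0649, edgeR). All of its counted bases also had a near-identical copy. Zfp532, counted over its 5′ UTR only, was at 9.24, 13.5 and 12.9 CPM against 5.49, 4.86 and 8.72 CPM and fell by 0.88 ± 0.30. Its call was lost without any 1 of 4 libraries, healthy-labelled replicates 2 and 3 and ARF-labelled replicates 1 and 2 (adjusted p of 0.0843 to 0.113, edgeR). Zfp9, Zfp275 and Zfp622 completed the 13, chosen here after their values were seen. Zfp622, a factor of ribosome maturation, was at 204, 212 and 198 CPM against 141, 177 and 152 CPM and fell by 0.39 ± 0.11. Zfp9 had overlapping groups. The call of each of these 3 was lost in 2 or more fits without 1 library. Rows of Zfp384, Zfp330 and Zfp532 also touch the body of another gene, whose reads could be included.

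Members with a known role in the embryo or in imprinting were read in part. Zfp445 (chr9:122844529-122866006), which protects imprinted methylation, was at 131, 110 and 123 CPM against 183, 185 and 149 CPM and rose by 0.50 ± 0.12 on the log2 scale (adjusted p = 0.00959, edgeR). Zfp568 (chr7:29983955-30028282), which silences a placental transcript of Igf2 in the embryo, was at 44.9, 52.0 and 59.0 CPM against 44.7, 36.5 and 25.8 CPM. All ARF-labelled values of Zfp568 were below the healthy-labelled ones, by 0.54 ± 0.21 on the log2 scale, and the test was not passed (adjusted p = 0.0571, edgeR). It was passed with DESeq2 (log2 fold change -0.55, adjusted p = 0.0441), and by edgeR without ARF-labelled replicate 1 (-0.72, adjusted p = 0.0232). Zfp503 (chr14:21983959-21989601), known as Nolz1 and as a developmental repressor, was at 9.24, 5.45 and 6.45 CPM against 19.5, 20.7 and 21.6 CPM, a rise of 1.51 ± 0.22. It was counted over 250 bases of its 5′ UTR only. Zfp36, Zfp57, Zfp809, Zfp106, Zfp143, Zfp207, Zfp217, Zfp281, Zfp410, Zfp423, Zfp521, Zfp703 and Zkscan3 could not be read by position and were not analysed here.

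Of the 5 members with the highest level, 2 rose and 3 were not called, beside 25.1% called higher among all genes tested. Per kilobase counted, the order of mean levels was Zfp148, Zfp91, Zfp637, Zfp369 and Zfp236. Zfp148, a factor that binds GC-rich promoters, was at 701 CPM per kilobase (healthy-labelled) and 753 (ARF-labelled), from 46 counted bases. Its CPM of 26.8, 35.6 and 34.3 against 34.6, 33.9 and 35.5 overlapped (log2 fold change 0.11 ± 0.14, adjusted p = 0.537, edgeR), and the sign changed without healthy-labelled replicate 1. Zfp91, a ubiquitin ligase of the noncanonical NF-kB pathway, was at 568 and 553 CPM per kilobase and overlapped too, with a log2 fold change of -0.04 ± 0.12 whose sign changed under scaling by total count. Zfp637 was at 300 and 514 CPM per kilobase from 41 counted bases, and rose by 0.80 ± 0.19 on the log2 scale. Zfp369, known as Nrif2 and as a partner of the neurotrophin receptor, was at 104, 112 and 98.3 CPM against 198, 178 and 185 CPM. It rose by 0.84 ± 0.10 (adjusted p = 0.000268, edgeR), and 62.0% of its counted bases had a near-identical copy. Zfp236 was at 29.8, 33.1 and 32 CPM against 33.9, 22.4 and 25.8 CPM and was not called. Zfp706, a small protein reported to repress Klf4 in embryonic stem cells, was at 202 and 175 CPM per kilobase, with 834, 665 and 890 CPM against 717, 680 and 669 CPM (log2 fold change -0.21 ± 0.13, adjusted p = 0.222, edgeR). Zfp148, Zfp91, Zfp637 and Zfp236 rest on under 100 counted bases each, so their order is a rough one.

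Members were sorted by motifs in their translated coding sequence, and a strict letter pattern was used, so a missing match does not show that a domain is missing. The 64 members with a KRAB match and no SCAN match had 39 rises, 2 falls and a median log2 fold change of 0.81. The 16 with a SCAN match had 11 rises, no falls and a median of 0.69. In the 70 others with 3 or more fingers 37 rose and 10 fell, with a median of 0.54. In the 9 others with fewer than 3 fingers 1 rose (Zfp503) and 1 fell (Zfp330), with a median of 0.04. The 2 falls in the KRAB class were Zfp948 and Zfp382. Among all genes tested 25.1% rose and 24.9% fell, and the differences between these classes were not tested.

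**Figure D3:**
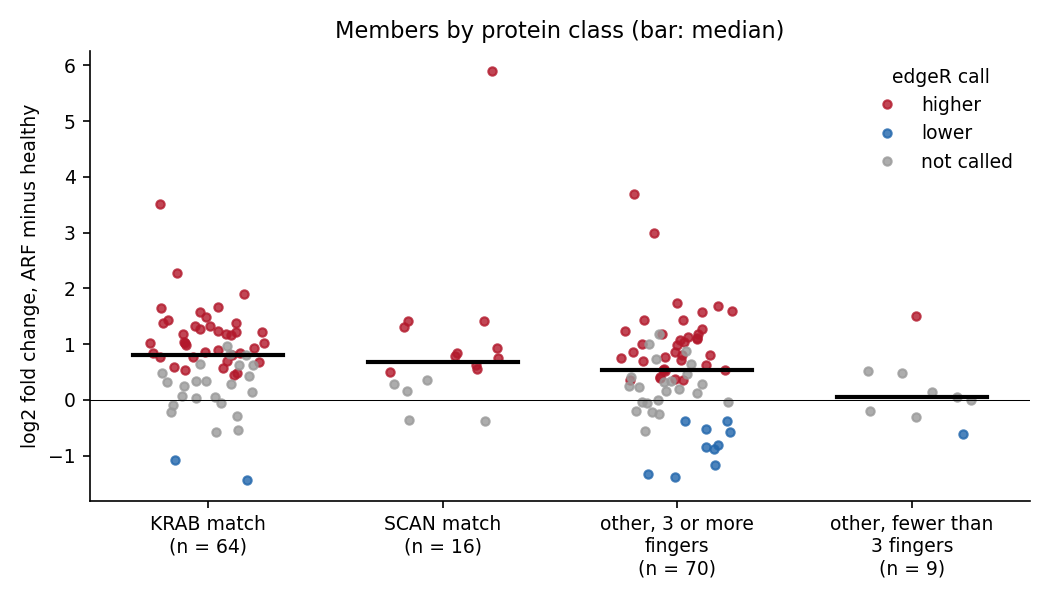
Log2 fold change (ARF-labelled minus healthy-labelled) of each member by protein class, coloured by edgeR call, with the class median as a bar. The medians are 0.81, 0.69, 0.54 and 0.04 from left to right, and most falls lie in the class with 3 or more fingers and no KRAB or SCAN match.

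The number of finger matches per protein ran from 0 to 33, with a median of 11. In the 55 members with 13 or more fingers, 41 rose and 2 fell, with a median log2 fold change of 0.84. In the 59 members with 8 to 12 fingers 28 rose and 8 fell (median 0.50), and in the 35 with 3 to 7 fingers 17 rose and 2 fell (median 0.55). The 10 members with fewer than 3 fingers had 2 rises and 1 fall (median 0.09). Rises made up 25.1% and falls 24.9% of all genes tested, and differences by finger number were not tested. Symbols with letters after the number were outside the rule: 14 of them were tested, 9 rose and none fell, among them Zfp354c with 57 against 547 counts and a log2 fold change of 2.58 ± 0.20.

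The members lay on 20 chromosomes, and 45 of them on chromosome 7, where 28 rose and 1 fell. On chromosome 13 the count was 10 rises and 1 fall of 13 members, on chromosome 11 it was 8 rises and no fall of 9, and on chromosome 17 it was 8 rises and 1 fall of 20. Chromosome 6 had 5 rises and 2 falls of 11, and chromosome 9 had 5 rises and no fall of 10. Not all leaned upward: chromosome 15 had 1 rise and 1 fall of 6 (median log2 fold change -0.005). Chromosome 18 had 2 rises and 1 fall of 5 (median -0.20). A run was taken as 3 or more members with gaps of at most 200 kb between neighbours, and 14 such runs held 73 members. In the runs 44 members rose and 2 fell, with a median log2 fold change of 0.83. Outside them 44 of 86 rose and 11 fell, with a median of 0.49. Genes of a run share sequence, so they are not independent of each other. Over all genes tested 25.1% rose and 24.9% fell. Differences between chromosomes, or between runs and the rest, were not tested.

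Single runs differed in how even they were. In the run of Zfp879, Zfp454 and Zfp2 (chr11:50832031-50916165) all 3 rose, by 1.58 to 3.52 on the log2 scale. In the run of 9 genes from Zfp708 to Zfp65 (chr13:67069399-67729173) 7 rose and none fell, and all values were between 0.62 and 1.57. The run of 9 from Zfp84 to Zfp146 (chr7:29768552-30169750) held 7 rises, among them Zfp30, Zfp420 and Zfp74, beside the fall of Zfp382 and the uncalled Zfp568. In the longest run, 11 genes from Zfp677 to Zfp946 (chr17:21383748-22456689), 2 rose and 1 (Zfp948) fell, with a median of 0.33. Its share of rises was below the 25.1% of all genes tested. In the run of 4 with Zfp773 (chr7:7114690-7209998), Zfp954 and Zfp418 rose by 1.04 ± 0.24 and 1.18 ± 0.27, and Zfp772 was not called (log2 fold change 0.31 ± 0.28, adjusted p = 0.386, edgeR). Members called in opposite directions stood in 1 run on chromosome 7 and 1 on chromosome 17, and in none of the other 12 runs.

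**Figure D4:**
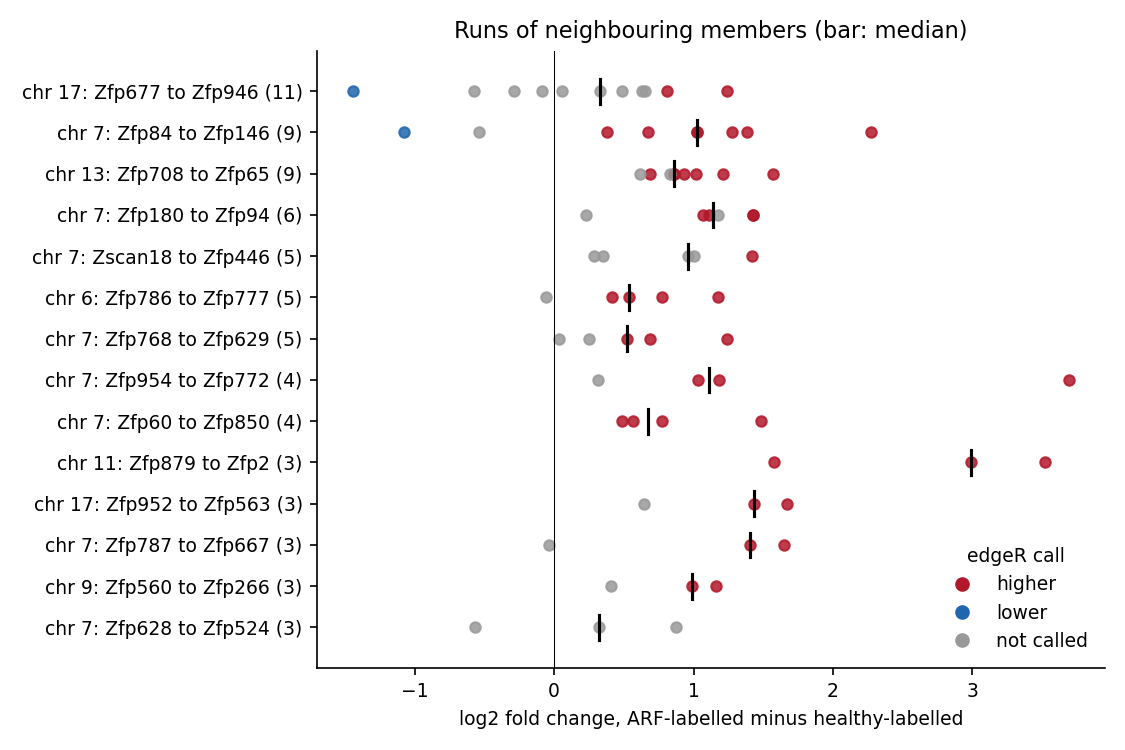
Log2 fold change (ARF-labelled minus healthy-labelled) of the members of each run of neighbouring genes, 1 row per run with its chromosome, end genes and number of members. Points are members coloured by edgeR call and bars are run medians. Values of the chromosome 13 run lie between 0.62 and 1.57, while the 11-gene run on chromosome 17 reaches from -1.44 to 1.24.

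Corepressors of KRAB factors, their partners and other genes of chromatin silencing were taken as a list of 37 genes. Not all of the 37 are established partners of KRAB factors. From this list 20 could be read and 19 were tested. Of these, 10 rose (52.6%) and 3 fell (15.8%), with a median log2 fold change of 0.36. Over all genes tested the shares were 25.1% and 24.9% and the median was 0.01, and the difference was not tested. Trim28, the corepressor itself, could not be read. Setdb1, its histone methyltransferase, was at 15.3, 21.8 and 13.8 CPM against 19.2, 15.1 and 18.3 CPM, and the groups overlapped (log2 fold change 0.06 ± 0.21, adjusted p = 0.825, edgeR). Atrx, a chromatin remodeller at heterochromatin, was at 38.8, 51.3 and 37.6 CPM against 94.1, 84.5 and 77.2 CPM, a rise of 1.01 ± 0.15 on the log2 scale. Ehmt2 (G9a), a histone methyltransferase, was at 23.8, 24.0 and 24.6 CPM against 43.4, 49.0 and 46.7 CPM, a rise of 0.94 ± 0.12. Atf7ip, which stabilises Setdb1, was at 63.3, 63.3 and 62.8 CPM against 111, 118 and 133 CPM, a rise of 0.93 ± 0.11. Each of these 3 kept its call in every fit without 1 library. Ehmt2 was read through 82 bases only and Setdb1 through 170, so their levels rest on small parts of the genes.

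The 3 falls in this list were in Uhrf1, Morc2a and Dnmt1. Uhrf1, which brings Dnmt1 to replicated DNA, was at 16.4, 13.5 and 12.9 CPM against 7.71, 10.8 and 7.51 CPM and fell by 0.73 ± 0.23. Morc2a, a partner of HUSH, fell by 0.49 ± 0.11, and Dnmt1 fell by 0.44 ± 0.12. Rows of Uhrf1 and Morc2a also touch the body of another gene, whose reads could be included. Without ARF-labelled replicate 1 or replicate 3 only 1 of the 3 falls was called, as it was under scaling by total count. The largest adjusted p over fits without 1 library was 0.0882 for Uhrf1 and 0.0611 for Dnmt1 (edgeR).

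Zinc finger genes of other families showed other counts. Of 30 Klf, Sp, Egr and Wt1 genes, 8 were tested: 6 fell and 1 rose, with a median log2 fold change of -0.88. Klf4, a factor of epithelial differentiation, was at 287, 356 and 342 CPM against 58.3, 41.5 and 63.6 CPM and fell by 2.59 ± 0.18 (adjusted p = 1.96e-05, edgeR). Klf13 fell by 1.04 ± 0.16 and Klf10, induced by TGF-beta, by 1.01 ± 0.16. The 1 rise, in the erythroid factor Klf1 from 0.943, 1.82 and 1.76 CPM to 3.43, 2.78 and 3.46 CPM, was lost in every fit without 1 library. Of 41 Zbtb genes 13 were tested, with 4 rises, 1 fall and a median of 0.20. Zbtb8b rose by 2.43 ± 0.48, from 5 counts over the healthy-labelled libraries to 45 over the ARF-labelled ones, read through 92 bases, so it could pass the filter on low counts only through the ARF-labelled group. Zbtb1 rose by 0.95 ± 0.19 and Zbtb8a by 0.68 ± 0.19. Zbtb16 (PLZF) fell by 1.02 ± 0.24, and the call of Zbtb8a was lost without healthy-labelled replicate 3 (adjusted p = 0.0685, edgeR). Rows of Klf13, Klf1 and Zbtb1 also touch the body of another gene, whose reads could be included. With 13 and 8 genes tested, these counts stand beside the 25.1% and 24.9% of all genes without a test of the difference.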

How the data were processed

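Kidney RNA libraries, 6 in all, were grouped by the diagnosis label, healthy (3) or acute renal failure (3). The authors deposited raw counts per row. Per the file headers, featureCounts 2.0.1 made these counts over exons, for pairs with both ends aligned and without strand. Bowtie 0.12.2 and mm9 stand in the submitters' processing notes, and the design text names other aligners, so the aligner and build behind the counts are not settled.

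Row intervals were laid over GRCm38 exons (GENCODE M21 basic, bedtools 2.31.1). A row went to the gene that held a share of 0.9 or more of the exon bases it overlaps, 25 bases or more. Rows of a gene were added: 12401 rows, 9520 genes, 63.0% of the counts. Rows that touch an exon held 98.5% of the counts. Of 159 members, 36 had rows that also touch another gene's body, and 18 had at least 50% of their counted bases in a copy of 95% identity elsewhere (BLAST 2.17.0). Strand was ignored, so reads of overlapping genes cannot be told apart.

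Counts were tested with edgeR 4.0.16 (R 4.3.3; quasi-likelihood, TMM, filterByExpr, library totals over all rows, two-sided), Benjamini-Hochberg adjusted over 5246 genes, adjusted p under 0.05, with no fold threshold. SE is the log2 fold change divided by the square root of F. With 3 libraries a group, a permutation of 1 gene cannot go below p = 0.1. Ratios of totals carry 95% intervals for counting error only. Replicates differed by more than sampling noise. No batch is named in the labels.

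The genes named were first the 10 largest changes in each direction among called members whose groups do not overlap. A list of members of known role and the 5 highest per kilobase were added. Outside this rule, Zfp2, Zfp60, Zfp420, Zfp74, Zfp954, Zfp418 and Zfp772 were named for the promoter word or a run, with their values known. Other exceptions are marked. Motif classes come from translated GENCODE coding sequences. The members and lists were chosen with earlier results of these data known. Alternatives were DESeq2 1.42.0, scaling by total count, other filters, each library left out, a replicate block, stricter readings of rows, symbols with letters, and, added after seeing the data, near-identical copies left out.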

Additional observations from a re-analysis of the deposited data

How the results depend on the processing

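Over 14 alternative fits, 68 to 104 members were called higher and 7 to 14 lower, and no called member changed sign. In fits without 1 library, 78 to 89 of the 101 calls were kept, fewest without healthy-labelled replicate 3, and 30 calls were lost in 1 or more fits. In every fit without 1 library 64 rises and 7 falls were called, and under every setting 49 and 5. Some settings did not test all of the 101, so a call missing there can mean not tested. With at least 30 counts 92 were tested, and with rows without another gene body 83 were tested and all 83 were kept. The number of members called lower was 7 under scaling by total count and 8 to 14 without 1 library. The number of corepressor and partner genes called lower was 1 under scaling by total count and 1 to 3 without 1 library. The 1 rise among Klf, Sp and Egr genes became 0 with DESeq2, with no filter, with at least 30 counts, with the replicate block, with rows wholly on 1 gene's exons, with rows without another gene body, and in each fit without 1 library. The Zbtb falls were 1 to 2 without 1 library, and the Zbtb rises were 2 with rows without another gene body. The log2 fold change of Zfp91 was 0.13 under scaling by total count, 0.0045 with no filter and -0.11 to 0.033 without 1 library (0.033 without ARF-labelled replicate 1), against -0.04. That of Zfp148 was -0.023 to 0.17 without 1 library (-0.023 without healthy-labelled replicate 1), against 0.11. The cause of these changes was not tested. Titles share replicate numbers, but same-numbered libraries did not deviate together (r of -0.07, -0.22 and -0.29 over 5246 genes). Deviations from a mean of 3 libraries are tied to each other, so this check cannot tell whether the numbers mark pairs. With the replicate block 78 members were called higher and 11 lower, and the Klf rise was the only list count it moved by over 1.5 times. Leaving out members with near-identical copies gave 80 and 11, and including symbols with letters gave 97 and 13. Depth limits the fold of members with few healthy-labelled counts, such as Zkscan16, Zfp773 and Zfp551.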
